A study of Mus musculus with 2 samples.

Results

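Interferon-induced genes are the genes that cells switch on when an interferon binds its receptor, and 41 of them were listed by symbol for mouse prostate tissue profiled by single-cell RNA sequencing. Of the 41, 40 had a row among the 32285 genes of the deposited matrices, and Mx2 was not analysed here. The series holds 1 library of prostate tumour tissue and 1 library of normal prostate tissue taken next to tumour. Both came from mice, and both were digested with collagenase and then trypsin. Cells sorted as CD45+ and as CD45- were run together in a single channel per tissue, with a kit that reads the 3′ end of each transcript. The labels state no strain, genotype, age, tumour model, treatment or number of animals, so both libraries are known only as tumour and normal adjacent tissue. The labels name the cells as CD45+ and epithelial, and fibroblasts were also present (236 tumour and 135 normal adjacent cells).

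The tumour library held 8237 barcodes with 92188538 unique molecular identifiers (UMIs, each standing for 1 captured RNA molecule), and the normal adjacent library held 6553 barcodes with 77855775 UMIs. After cells with few genes or a high mitochondrial share were left out, 7768 tumour and 6209 normal adjacent cells remained, with median depths of 6654.5 and 6383 UMIs. Cell types were set by marker gates, so that "neutrophil" stands for a neutrophil-like cell that passed the gate of that panel and of no other lineage. A single lineage was assigned to 5188 tumour and 4189 normal adjacent cells. Markers of at least 2 lineages were present in 1896 tumour cells (24.4%) and 1306 normal adjacent cells (21.0%), which were set apart. S100a8, a gene of the neutrophil panel, stood at 21650 CPM (counts per 1000000 UMIs) in tumour neutrophils and 26500 CPM in normal adjacent neutrophils. It stood at 1065 CPM in all other tumour cells and 773 CPM in all other normal adjacent cells. The gate itself used S100a8, so this difference is no independent check that the panels separated the types. Only 18 barcodes were shared between the libraries, 16 of them among the cells kept. With 1 library per group the differences below have no replicate check and no test. The 95% intervals cover counting error only, and fewer cells of a state and less RNA per cell are told apart only where single cells are described.

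Interferons come in 3 types. Type I interferons (alpha and beta) and type III interferons (lambda) signal through Jak kinases to a complex that contains Stat2 and Irf9 and binds interferon-stimulated response elements. Type II interferon (gamma) has its own receptor and acts through gamma-activated sites. The induced genes include transcription factors that feed back on the pathway (Irf7, Irf9, Stat2) and sensors of foreign or misplaced nucleic acids (Ifih1, Dhx58, Zbp1, Eif2ak2, Ifi204). Others are the RNA-binding IFIT proteins, the OAS enzymes that make oligoadenylates, and GTPases that attack the membranes around intracellular microbes. The ubiquitin-like protein Isg15 and its enzymes are grouped below with the ubiquitin ligase Trim30a as the ISG15 system. Other effectors include the antiviral enzyme Rsad2 (viperin) and the membrane tether Bst2 (tetherin). In tumours such genes are known as a readout of interferon reaching immune and epithelial cells.

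The response element is visible in the DNA just upstream of many of these genes. RefSeq promoter windows of build GRCm38.p6 (250 bases before each transcript start) were matched for 32 of the 41 genes in 38 windows. Its core, GAAA followed by any 2 bases and GAAA again, read on both strands, were present in 17 of the 38 windows (44.7%), compared with 2.98% of 32851 windows of all genes. The gamma-activated site TTCNNNGAA was present in 8 of the 38 windows (21.1%) and in 7.02% of all windows. By role, the response element letters were found for 6 of 7 GTPases, 3 of 4 IFIT genes, 2 of 4 OAS genes, 2 of 3 genes of the ISG15 system, 3 of 9 other effectors, 1 of 3 transcription factors and 0 of 2 sensors. A match describes letters in a window and is not evidence that a factor binds there. The stretches shown are those of genes that carry the expression results below, with capitals for the motif letters (the GAAA pair with its spacer, or TTTC on the other strand) and 12 flanking bases on each side, each written 5′ to 3′ on the strand of its gene.
Isg15, minus strand, chr4:156200863-156200908, 3 overlapping motifs: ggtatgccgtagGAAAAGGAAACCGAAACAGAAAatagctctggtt
Ifit1, plus strand, chr19:34640773-34640825, 2 motifs: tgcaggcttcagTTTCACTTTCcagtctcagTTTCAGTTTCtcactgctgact
Ifit3, plus strand, chr19:34583361-34583428, 2 motifs: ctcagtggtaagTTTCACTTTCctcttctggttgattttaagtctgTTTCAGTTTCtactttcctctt
Rsad2, minus strand, chr12:26456551-26456584, 1 motif: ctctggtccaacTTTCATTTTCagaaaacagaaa
Oas3, minus strand, chr5:120777713-120777746, 1 motif: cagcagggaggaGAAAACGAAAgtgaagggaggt
Gbp2, plus strand, chr3:142620592-142620625, 1 motif: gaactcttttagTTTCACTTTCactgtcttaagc
Irgm1, minus strand, chr11:48871423-48871462, 2 overlapping motifs: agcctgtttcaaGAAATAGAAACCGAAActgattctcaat
Bst2, minus strand, chr8:71537575-71537614, 2 overlapping motifs: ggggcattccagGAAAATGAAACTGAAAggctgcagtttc

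The first Isg15 motif began 78 bases before the transcript start and the last 66 bases before it. The Irgm1 motifs lay nearest to their start, at 30 and 24 bases, and the Oas3 motif lay 75 bases from its start. Ifit3b, a neighbouring copy of Ifit3, had the same stretch at chr19:34607757-34607824, identical in 68 of 68 bases. The copies also share transcript sequence: 51.2% of the 50-base stretches of Ifit3 and 45.0% of those of Ifit3b occur in another gene, as do 57.6% of those of Oas1a. Counts of those genes could therefore be split between copies and are less certain than the others.

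Over all cells kept, the 40 genes held 265135 UMIs in the tumour library and 204360 UMIs in the normal adjacent library. That was 0.291% of all tumour UMIs and 0.265% of all normal adjacent UMIs, a ratio of 1.10. Every one of the 40 was detected in both libraries. Isg15 gave the most, 39435 UMIs in the tumour library and 28869 UMIs in the normal adjacent library, which is 14.9% and 14.1% of the summed signal. Bst2 (38252 tumour UMIs) and Rsad2 (24074 tumour UMIs) came next, followed by Ifit1, Irf7 and Ifi204. Gbp5, a guanylate-binding GTPase, gave the fewest, with 553 tumour and 475 normal adjacent UMIs.

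The summed share differed far more between cell types than between the tissues. Neutrophils stood highest, with 1.37% of tumour UMIs (interval 1.35 to 1.38) and 1.44% of normal adjacent UMIs (1.42 to 1.45) from the 40 genes. Monocytes followed among the 15 types with enough cells in the tumour library, at 0.436%, and stood at 0.233% in the normal adjacent library. Luminal progenitors, an epithelial type, reached 0.292% in tumour and 0.326% in normal adjacent tissue, and macrophages 0.267% and 0.270%. T cells, NK cells and dendritic cells other than the plasmacytoid type lay between 0.114% and 0.294% in both libraries. B cells had the lowest share of the 15 types, 0.0771% in tumour and 0.0574% in normal adjacent tissue. An Isg15 UMI was seen in 10.5% of tumour and 12.8% of normal adjacent B cells, at median depths of 4174 and 4709 UMIs, compared with 63.1% of tumour and 61.7% of normal adjacent neutrophils at the lower median depths of 2236.5 and 2829 UMIs.

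**Figure D1:**
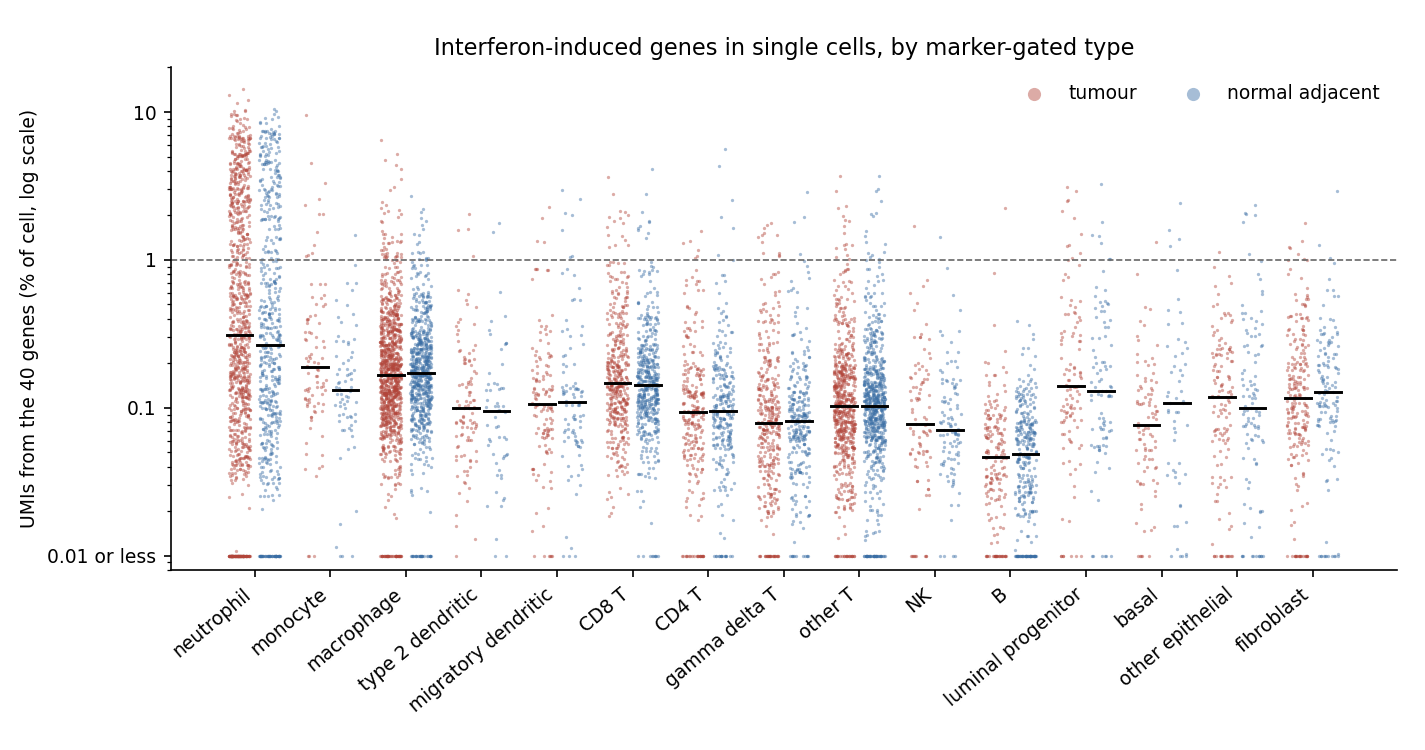
Share of each cell's UMIs from the 40 interferon-induced genes (percent, log scale), 1 point per cell, by marker-gated type, tumour left and normal adjacent right, with black bars at the medians and a dashed line at 1%. Neutrophils spread from 0 to 14.3% in tumour and 10.6% in normal adjacent tissue, with medians of 0.309% and 0.267%, while most cells of the other types lie under 1%.

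Within neutrophils the genes were concentrated in a minority of cells. The median tumour neutrophil had 0.309% of its UMIs from the 40 genes, its upper quartile lay at 1.98% and its highest cell at 14.3%. In normal adjacent neutrophils the median was 0.267%, the upper quartile 1.71% and the highest cell 10.6%. A cell with at least 1% of its UMIs from the 40 genes is called a carrier below. Carriers made up 341 of 1040 tumour neutrophils (32.8%, interval 29.9 to 35.7) and 168 of 567 normal adjacent neutrophils (29.6%, 25.9 to 33.6), a difference of 3.16 percentage points whose interval runs from -1.62 to 7.80. With each cell thinned to 1000 UMIs, which left out 40 tumour and 30 normal adjacent neutrophils, the shares were 33.1% in tumour and 30.2% in normal adjacent tissue. Carriers held 88.3% of the tumour and 89.7% of the normal adjacent neutrophil signal, and 102 tumour and 49 normal adjacent neutrophils were enough to hold 50% of it. The latter count ranks cells by UMIs and not by share, so the depth of a cell also enters it. At the other end, 10.7% of tumour and 9.17% of normal adjacent neutrophils had no UMI of any of the 40 genes.

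Neutrophils supplied far more of the signal than of all UMIs. They were 13.4% of tumour cells and 2.99% of tumour UMIs, but 14.1% of the summed signal and 49.0% of all 696 carriers. In the normal adjacent library they were 9.13% of cells, 2.30% of UMIs, 12.4% of the signal and 46.0% of the 365 carriers. Neutrophils had the highest level of 27 of the 40 genes among the 15 types in the tumour and of 31 in the normal adjacent library. The exceptions in both libraries included Bst2, highest in macrophages, Iigp1 and Ifi205, highest in fibroblasts, Igtp, highest in CD8 T cells, Stat2, highest in monocytes, and Ifi44, highest in luminal progenitors.

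**Figure D2:**
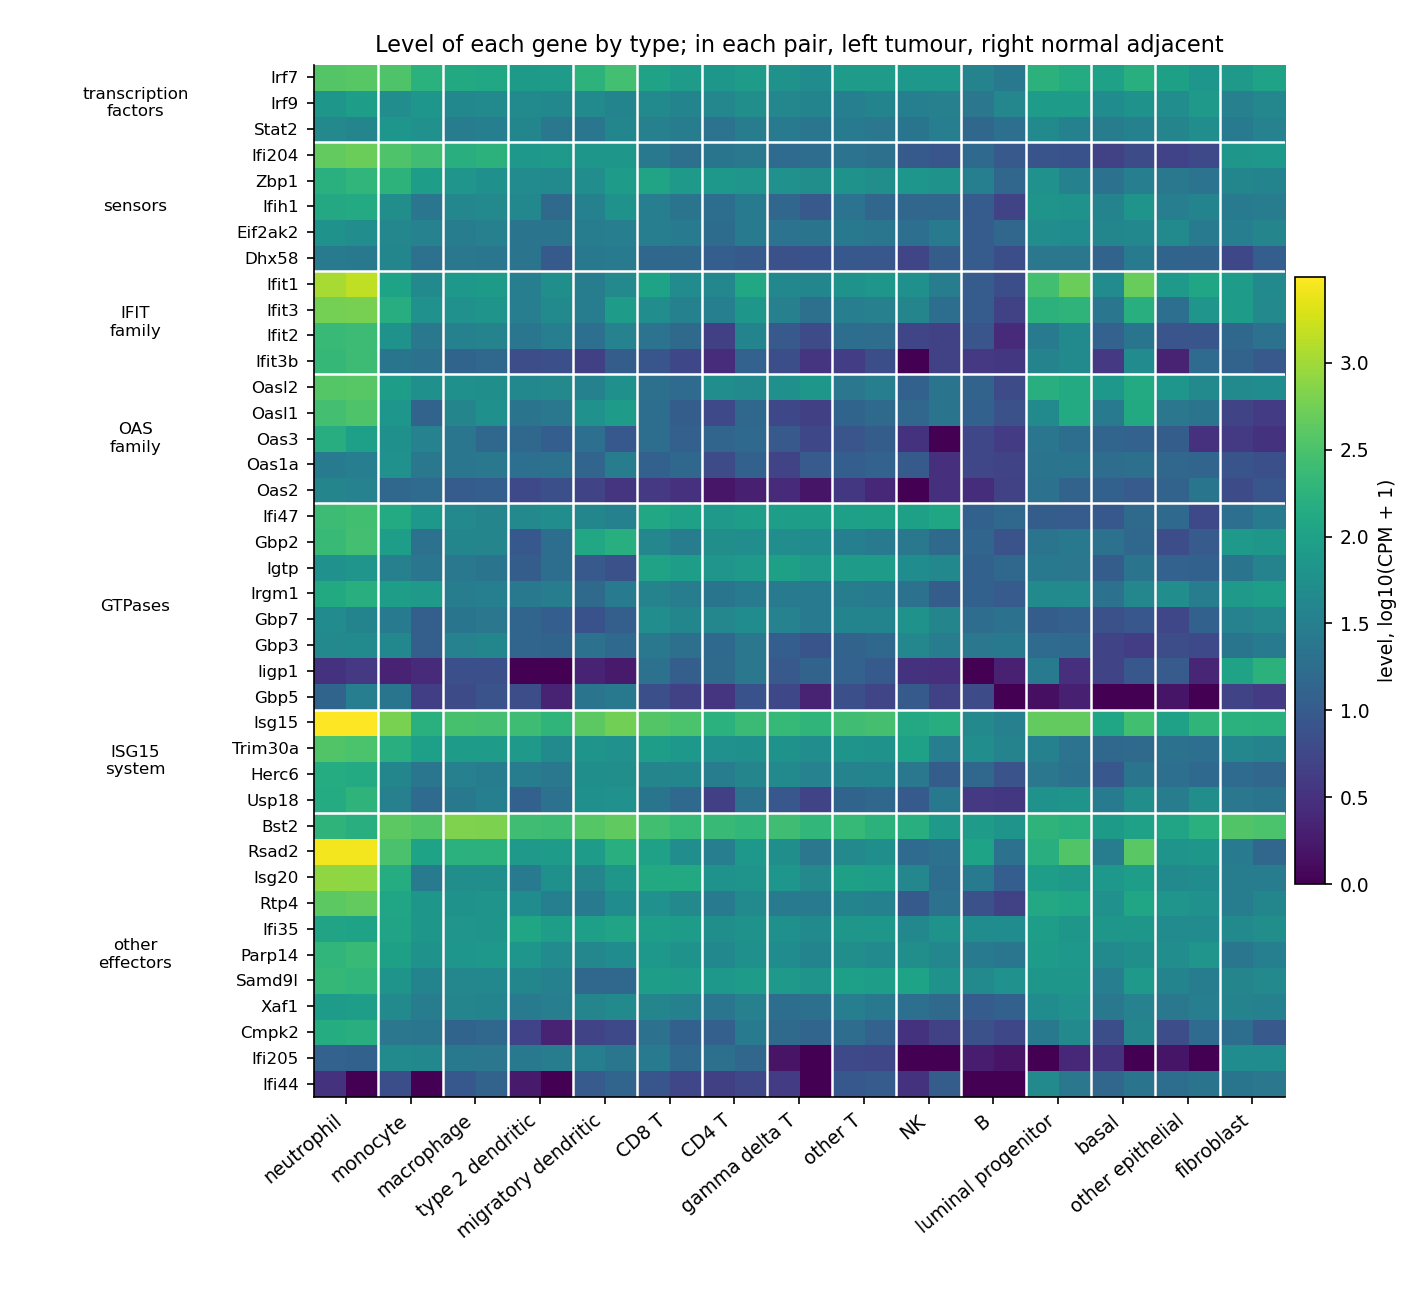
Level of each of the 40 genes, in log10(CPM + 1), by cell type and grouped by role, with tumour left and normal adjacent right in each pair. Isg15 and Rsad2 are brightest in neutrophils (3116 and 2712 CPM in tumour), and Bst2 is spread over nearly all types.

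The effectors and the ISG15 system made up most of the neutrophil response. Isg15 stood at 3116 CPM in tumour and 3073 CPM in normal adjacent neutrophils, and Rsad2, which makes a nucleotide that stops viral RNA synthesis, at 2712 CPM and 2737 CPM. For both genes the interval of the ratio between the tissues held 1. Ifit1, which binds RNA lacking the host's cap methylation, stood at 1079 CPM in tumour and 1423 CPM in normal adjacent neutrophils. Isg20, an RNA exonuclease, reached 827.7 CPM in tumour and 802.3 CPM in normal adjacent neutrophils, and Rtp4, a membrane protein, 407 CPM and 454.5 CPM. Among the regulators, Irf7, which amplifies interferon production, stood at 366 CPM in tumour and 379 CPM in normal adjacent neutrophils. The other transcription factors of the list were scarcer than Irf7: Irf9 at 70.4 CPM and 87.0 CPM, and Stat2 at 42.5 CPM and 38.4 CPM. The DNA-binding Ifi204 led the sensors with 444.5 CPM in tumour and 514 CPM in normal adjacent neutrophils, ahead of Zbp1 (164 and 196 CPM) and Ifih1, the RNA sensor MDA5 (127 and 134 CPM). Oasl2 was the leading OAS gene at 376 CPM in tumour and 386 CPM in normal adjacent neutrophils. Ifi47 and Gbp2 led the GTPases, at 247.5 and 235 CPM in tumour neutrophils and 269 and 277 CPM in normal adjacent neutrophils. A level counts 3′ ends and was not divided by transcript length.

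The genes were high together in the same neutrophils. With each gene set against carriers defined without it, 37 of 38 measured genes were at least 1.5-fold higher in carriers than in other neutrophils in each library. Over all genes outside the list, 9.01% were at least 1.5-fold higher in tumour carriers and 11.1% in normal adjacent carriers. At least 1.5-fold lower were 41.7% in tumour and 45.6% in normal adjacent carriers. The median ratio of the 38 genes was 11.1 in tumour and 13.3 in normal adjacent neutrophils. The IFIT genes were among the most divided: Ifit2 was 72.6-fold higher in tumour carriers and 103-fold higher in normal adjacent carriers, and Ifit3 66.3-fold and 59.98-fold. Gbp2 was 36.0-fold higher in tumour carriers and 32.5-fold higher in normal adjacent carriers, and Irf7 11.0-fold and 9.61-fold. Isg15 was less divided, at 8.92-fold in tumour and 11.2-fold in normal adjacent carriers, as were Bst2 at 3.56-fold and 3.14-fold and Irf9 at 3.27-fold and 3.497-fold. Ifi205 was the exception in both libraries, but on few molecules. Its ratio was 0.411 (0.123 to 1.088) in tumour, from 5 UMIs in carriers and 26 UMIs in other neutrophils. In normal adjacent neutrophils it was 0.934 (0.294 to 2.588), from 6 and 14 UMIs, and both intervals held 1.

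A split into separate gene sets showed the same gradation. Neutrophils were sorted by the 4 IFIT genes and Rsad2, and the remaining 35 genes were read in the same cells. In the 530 tumour neutrophils with no UMI of those 5 genes, the other 35 held 0.156% of UMIs. They held 0.530% in 243 cells with under 0.5%, 2.11% in 174 cells with 0.5% to 2%, and 3.83% in 93 cells with 2% or more. Normal adjacent neutrophils gave 0.162% (298 cells), 0.519% (136 cells), 2.20% (82 cells) and 3.92% (51 cells) over the same steps. Between the top and bottom steps, 34 of 35 genes were higher by any amount in tumour and 33 of 35 in normal adjacent neutrophils. At least 1.5-fold higher were 33 in each library, with median ratios of 25.2 in tumour and 20.6 in normal adjacent neutrophils. No share over all genes is given for this split. By the summed shares, the 2 sets were high in the same cells. Median depth was also higher in the top step, 2433 UMIs in tumour and 3315 UMIs in normal adjacent cells, compared with 2133 and 2652.5 UMIs in the bottom step, and the part of depth in the gradation was not tested.

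**Figure D3:**
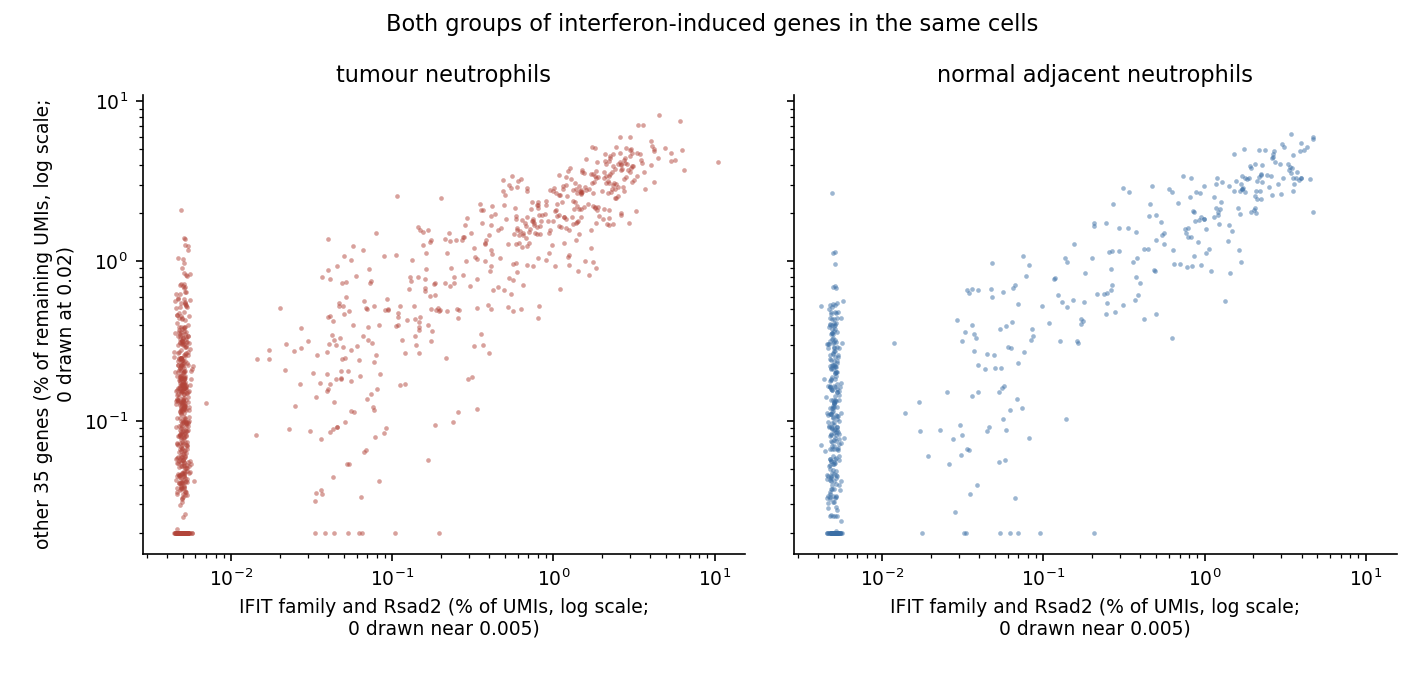
Each neutrophil's share of UMIs from the 4 IFIT genes and Rsad2 (x axis, percent, log scale) and from the other 35 interferon-induced genes (y axis, percent of the remaining UMIs, log scale), with tumour left and normal adjacent right. Cells without a UMI of the 5 genes form the column at the left (530 tumour and 298 normal adjacent cells), and cells with 2% or more of the 5 genes hold 3.83% of the other genes in tumour and 3.92% in normal adjacent tissue.

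Carrier neutrophils had a median of 19 of the 40 genes detected in tumour and 21 in normal adjacent tissue, while other neutrophils had 2 in each. Their median depth was 2369 UMIs in tumour and 3116 UMIs in normal adjacent tissue, compared with 2188 and 2724 UMIs for other neutrophils. The summed neutrophil marker panel was lower in carriers, at 368.5 UMIs per 10000 in tumour and 355.5 in normal adjacent tissue, than in other neutrophils, at 565.5 in tumour and 570.6 in normal adjacent tissue. Gene by gene the panel was mixed. Of its 9 genes, 1 was at least 1.5-fold higher and 1 lower in tumour carriers, with a median ratio of 1.11. In normal adjacent carriers 1 was higher and 2 lower, with a median of 0.834. Over all genes the medians were 0.739 in tumour and 0.707 in normal adjacent carriers, with 9.01% and 11.1% higher and 41.7% and 45.6% lower. The macrophage panel stood at 4.54 UMIs per 10000 in tumour carriers and 4.09 in normal adjacent carriers, compared with 5.72 and 5.09 in other neutrophils. Mmp9, a gelatinase of mature neutrophils, was at a ratio of 0.339 in tumour carriers and 0.356 in normal adjacent carriers, S100a8 at 0.765 and 0.646, and Retnlg at 2.05 and 1.16.

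Interferon-induced genes outside the 40 followed the same cells. Of 39 further such genes measured in tumour neutrophils, 35 were at least 1.5-fold higher in carriers and 3 lower, and of 35 measured in normal adjacent neutrophils, 34 were higher and 0 lower. Over all genes, 9.01% in tumour and 11.1% in normal adjacent neutrophils were at least 1.5-fold higher in carriers, and 41.7% and 45.6% were lower. The chemokine Cxcl10, which attracts T cells, stood at 3196 CPM in tumour carriers and 52.9 CPM in other tumour neutrophils. In normal adjacent tissue Cxcl10 stood at 4282 CPM in carriers and 59.4 CPM in other neutrophils. Ifitm3, which blocks viral entry, reached 6152 CPM in tumour carriers and 861 CPM in other tumour neutrophils (7.14-fold), and 5345 CPM and 815 CPM in normal adjacent tissue (6.56-fold). Slfn4 was 8.001-fold higher in tumour and 7.41-fold higher in normal adjacent carriers, and Cd274, which encodes the checkpoint ligand PD-L1, 5.76-fold and 7.86-fold. Of 5 receptor genes measured, 0 were at least 1.5-fold higher in carriers and 2 were lower in each library, close to the 41.7% and 45.6% of all genes lower. Their median ratios were 1.202 in tumour and 0.814 in normal adjacent tissue, and those of all genes 0.739 and 0.707. Ifnar1 was at a ratio of 0.644 in tumour and 0.627 in normal adjacent carriers. The 3 further genes lower in tumour carriers were Ms4a4c at 0.302, Phf11d at 0.370 and Lgals3bp at 0.588.

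Between the tissues, neutrophils differed little. The summed share of the 40 genes in tumour neutrophils was 0.953 times that in normal adjacent neutrophils (interval 0.938 to 0.968), and the direction turned with the way cells were weighted, with 1.04 as a mean over cells and 1.03 after thinning. Of 38 genes measured, 1 was at least 1.5-fold higher in tumour neutrophils (over all genes 9.97%) and 1 was lower (over all genes 7.48%). The higher gene was Oas3, with 405 UMIs in tumour and 163 UMIs in normal adjacent neutrophils, or 148.5 and 92.0 CPM, a ratio of 1.61 (1.34 to 1.95). The lower gene was Gbp5, with 34 UMIs in tumour and 54 UMIs in normal adjacent neutrophils, a ratio of 0.409 (0.258 to 0.640). The IFIT family summed to 2094 CPM in tumour and 2510 CPM in normal adjacent neutrophils, a ratio of 0.834 (0.802 to 0.868), led by Ifit1 at 0.758 (0.719 to 0.800). Usp18, which removes Isg15 from proteins and dampens the type I receptor, was at 138 CPM in tumour and 189 CPM in normal adjacent neutrophils. The summed ISG15 system stood at 3756 CPM in tumour and 3715 CPM in normal adjacent neutrophils, and the other effectors at 4889 CPM and 4952 CPM.

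Monocytes had the largest ratio between the tissues of the 15 types. Their summed share was 0.436% (interval 0.423 to 0.451) in 92 tumour cells and 0.233% (0.221 to 0.246) in 73 normal adjacent cells, a ratio of 1.87 (1.76 to 1.997). Depth was alike, with medians of 8620 UMIs in tumour and 8779 UMIs in normal adjacent monocytes. Of 38 genes measured, 27 were at least 1.5-fold higher in tumour monocytes (over all genes 12.3%) and 0 were lower (over all genes 9.97%), and 36 of 38 had a ratio above 1. The median log2 ratio of the 38 was 0.81, and that of all genes measured was -0.01. All 7 roles were higher in sum, from the ISG15 system at 2.90-fold (2.45 to 3.45) and the IFIT family at 2.30-fold to the transcription factors at 1.54-fold and the sensors at 1.51-fold.

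Isg15 reached 616 CPM in tumour monocytes and 164 CPM in normal adjacent monocytes, a ratio of 3.76 (3.02 to 4.73). Isg20 had 143.5 CPM in tumour and 25.8 CPM in normal adjacent monocytes (5.55-fold, 3.24 to 10.2). Rsad2 stood at 304 CPM in tumour and 105 CPM in normal adjacent monocytes (2.90-fold, 2.18 to 3.89). Several of the largest ratios rested on few molecules. Oasl1, an OAS-like protein that in mouse restrains Irf7 translation, had 58 UMIs in tumour and 7 UMIs in normal adjacent monocytes (5.61-fold, 2.56 to 14.6), and Gbp2 75 and 11 UMIs (4.62-fold, 2.44 to 9.64). Gbp5 had 19 UMIs in tumour and 2 UMIs in normal adjacent monocytes, a ratio of 6.43 with an interval from 1.55 to 56.9. Other genes were closer to 1: Ifi204 at 1.28, Irgm1 at 1.17, Stat2 at 1.17 and Bst2 at 1.16, with 408 CPM of Bst2 in tumour and 353 CPM in normal adjacent monocytes. Irf9 was lower, at 51.3 CPM in tumour and 67.2 CPM in normal adjacent monocytes.

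**Figure D4:**
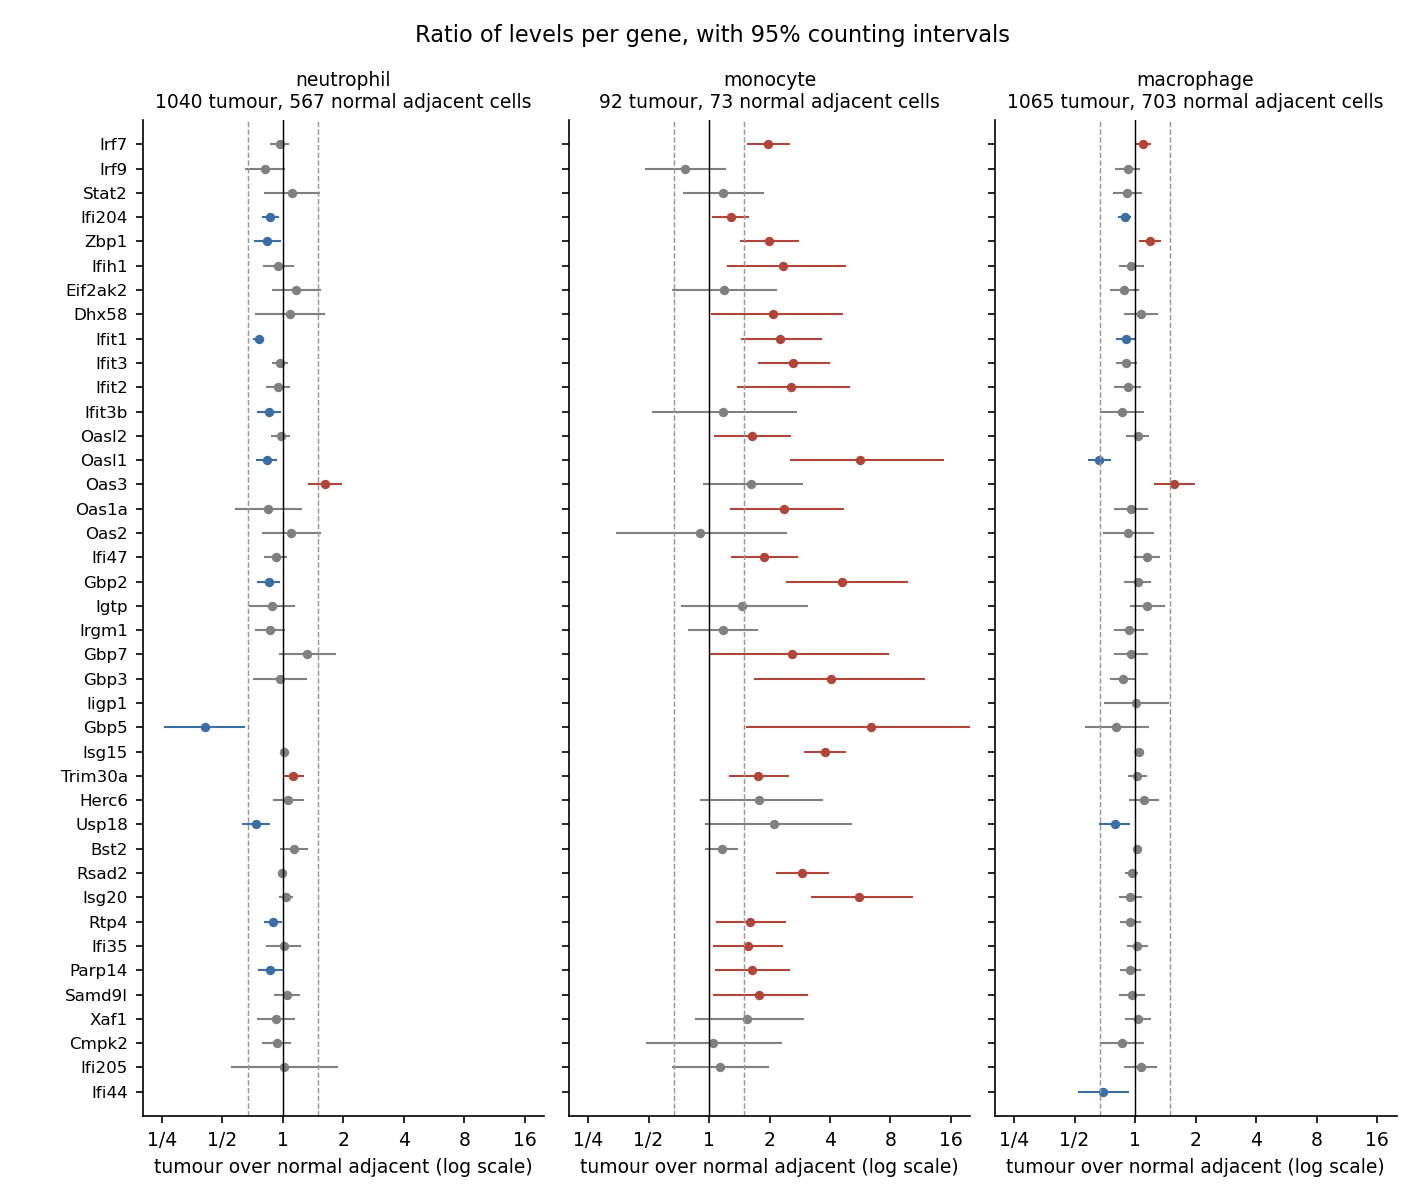
Tumour over normal adjacent ratio of each gene's level (log scale) with 95% counting intervals in neutrophils, monocytes and macrophages, red where the interval lies above 1, blue where it lies below 1 and grey where it holds 1, with dashed lines at a fold of 1.5. In monocytes 36 of 38 genes lie right of 1, while in neutrophils and macrophages most lie close to 1.

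The monocyte difference rested in large part on a few cells. Carriers were 12 of 92 tumour monocytes (13.04%, interval 6.92 to 21.7) and 1 of 73 normal adjacent monocytes (1.37%, 0.0347 to 7.40). The 12 tumour cells had shares of 9.501, 4.54, 3.30, 2.60, 2.37, 2.05, 2.04, 1.55, 1.26, 1.10, 1.08 and 1.07%, at depths of 748 to 32708 UMIs and with 11 to 37 of the 40 genes detected. The normal adjacent carrier had 1.46% of 14350 UMIs and 30 genes. Carriers held 51.4% of the signal of tumour monocytes and 15.5% of that of normal adjacent monocytes. The difference in carrier share was 11.7 percentage points (3.59 to 20.1), and 7.90 points (-0.113 to 16.1) with cells thinned to 1000 UMIs, which left out 7 cells of each library. The neutrophil panel stood at a median of 7.30 UMIs per 10000 in the tumour carriers and 50.2 in the normal adjacent carrier, against 2.11 in other tumour and 2.02 in other normal adjacent monocytes, and its part in the result was not tested. For Ifit1, 1 cell held 34.4% of the UMIs of tumour monocytes and 1 cell held 81.5% of those of normal adjacent monocytes.

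Without the carriers, tumour monocytes still had more of these RNAs, but by less. The share was 0.242% in 80 tumour cells and 0.202% in 72 normal adjacent cells, a ratio of 1.202 (1.12 to 1.30). Then 9 of 31 genes were at least 1.5-fold higher (over all genes 11.2%) and 0 were lower (over all genes 10.3%). The median cell had 0.151% in tumour and 0.131% in normal adjacent tissue after that step, and 0.188% and 0.132% before it. With the carriers included again, 18 of 35 interferon-induced genes outside the 40 were at least 1.5-fold higher in tumour monocytes (over all genes 12.3%). In the same cells 0 were lower (over all genes 9.97%). Also with carriers included, Cxcl10 stood at 695 CPM in tumour and 121 CPM in normal adjacent monocytes (5.76-fold, 4.49 to 7.49). Its relative Cxcl9, a gene of the gamma interferon response, had 51 UMIs in tumour and 3 UMIs in normal adjacent monocytes. By the monocyte panel, 633 tumour and 413 normal adjacent cells lay just outside the gate, within 1.5-fold of the threshold. Only 16 and 13 gated monocytes lay just inside. The cells outside were not split by type. Macrophages had medians of 27.65 UMIs per 10000 of that panel in tumour and 25.26 in normal adjacent tissue, near its threshold of 32. A cell that passed the macrophage panel was not typed as a monocyte, whatever its level of the monocyte panel.

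Macrophages, the largest phagocyte type, did not share the monocyte pattern. The 1065 tumour and 703 normal adjacent macrophages had summed shares of 0.267% and 0.270%, a ratio of 0.989 (0.973 to 1.01), at median depths of 10847 and 7823 UMIs. Bst2 led, at 659 CPM in tumour and 642 CPM in normal adjacent macrophages, with a UMI in 83.9% and 75.2% of cells. Isg15 stood at 298 CPM in tumour and 285 CPM in normal adjacent macrophages, Rsad2 at 168 and 174.5 CPM, and Ifi204 at 155.5 and 175 CPM. All 40 genes were measured. Oas3 was at least 1.5-fold higher in tumour, with 350 UMIs in tumour and 112 UMIs in normal adjacent macrophages (over all genes 4.93%), and Oasl1 was lower at 0.665 (over all genes 4.18%). Neither passed 1.5-fold after thinning, with Oas3 at 18.2 CPM in tumour and 16.1 CPM in normal adjacent macrophages and Oasl1 at 48.4 and 51.6 CPM. Carriers were 49 tumour cells (4.60%) and 19 normal adjacent cells (2.70%), 1.90 points apart (0.052 to 3.62), and 1.25 points apart (-0.824 to 3.15) after thinning, which left out 74 tumour and 83 normal adjacent macrophages. They held 16.7% of the tumour and 16.4% of the normal adjacent macrophage signal, so that most of it came from cells under 1%, whereas in neutrophils most came from carriers.

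**Figure D5:**
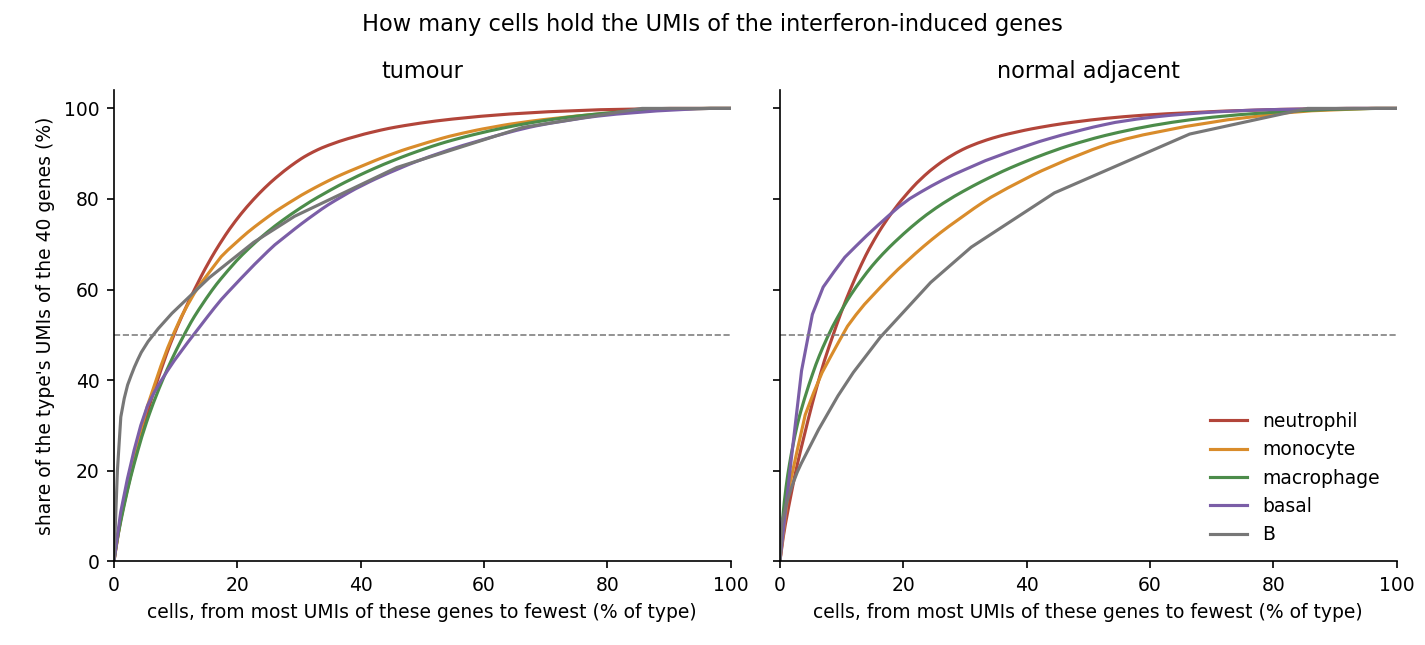
Share of a type's UMIs of the 40 genes (y axis, percent) held by its cells, counted from the cell with most such UMIs to the cell with fewest (x axis, percent of cells), for 5 types, tumour left and normal adjacent right. The curves cross 50% at 9.81% of tumour and 8.64% of normal adjacent neutrophils, at 11.5% and 7.97% of macrophages, and among normal adjacent basal cells 3 of 57 cells reach it. Neutrophils and macrophages lie close together by this measure, which ranks cells by UMIs and so also follows depth.

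Basal epithelial cells were the reverse case, with a lower share in the tumour library. The 40 genes held 0.117% of UMIs in 92 tumour basal cells and 0.287% in 57 normal adjacent basal cells, a ratio of 0.408 (0.388 to 0.428), at median depths of 22904.5 and 28623 UMIs. Of 36 genes measured, 22 were at least 1.5-fold lower (over all genes 6.81%) and 0 were higher (over all genes 9.53%), with a median log2 ratio of -0.84 beside 0.01 for all genes. Ifit1 had 102 UMIs in tumour and 725 UMIs in normal adjacent basal cells, a ratio of 0.0993 (0.0799 to 0.122). Rsad2 had 62 UMIs in tumour and 608 UMIs in normal adjacent basal cells, a ratio of 0.0719 (0.0545 to 0.0935). The summed IFIT family stood at 83.7 CPM in tumour and 698 CPM in normal adjacent basal cells, while Isg15 differed less, at 117 and 273 CPM. Bst2 was closer still, at 79.1 CPM in tumour and 98.4 CPM in normal adjacent basal cells, and Ifi35 was alike at 69.0 and 69.1 CPM.

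Here too a few cells weighed heavily. There was 1 carrier among tumour basal cells, at 1.32%, and there were 4 among normal adjacent basal cells, at 2.44, 1.59, 1.38 and 1.25%. The 4 held 56.7% of the normal adjacent basal signal, and a single cell held 21.5% of it. For Ifit1, 3 tumour cells and 2 normal adjacent cells held 50% of the UMIs. Without carriers the shares were 0.105% in tumour and 0.137% in normal adjacent basal cells, a ratio of 0.768 (0.722 to 0.817). Then 15 of 31 genes were at least 1.5-fold lower (over all genes 6.58%) and 2 higher (over all genes 9.33%). Ifnl3, which encodes a type III interferon to which epithelial cells respond, was detected in 2 cells of the normal adjacent library, 1 basal cell with 22 UMIs and 1 luminal progenitor with 5 UMIs, and both were carriers. No Ifnl3 UMI was found in the tumour library (0 of 7768 cells, which at a limit of 3 counts allows up to 0.0386% of cells with an Ifnl3 UMI and sets no limit on cells that express it). Cxcl9 ran the other way in basal cells, with 101 UMIs in tumour and 1 UMI in normal adjacent cells.

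Luminal progenitors had a share of 0.292% in 113 tumour cells and 0.326% in 92 normal adjacent cells, a ratio of 0.897 (0.867 to 0.927). That direction was not stable, since the ratio was 1.25 without carriers and as a mean over cells, and 2 normal adjacent cells held 19.4% of the signal each. Isg15 was alike, at 453 CPM in tumour and 446 CPM in normal adjacent luminal progenitors. Ifit1 (271 and 506 CPM), Rsad2 (154 and 347.5 CPM) and Oasl1 (46.0 and 135.5 CPM) were lower in tumour. For Rsad2 that direction turned after thinning, with 250.0 CPM in tumour and 209.9 CPM in normal adjacent luminal progenitors, and 2 cells of each library held 50% of its UMIs. Iigp1, a GTPase of the gamma interferon response, had 67 UMIs in tumour and 4 UMIs in normal adjacent luminal progenitors, a ratio of 12.6 (4.71 to 47.7), and 1 tumour cell held 58.2% of the 67 UMIs. In all, 5 of 38 genes were at least 1.5-fold higher in tumour (over all genes 7.87%) and 5 lower (over all genes 6.59%). In the remaining epithelial cells, 11 of 35 genes were lower (over all genes 4.1%) and 4 higher (over all genes 25.9%), and Isg15 stood at 99.3 CPM in tumour and 191 CPM in normal adjacent cells. Without carriers 5 of 33 were lower (over all genes 3.98%) and 4 higher (over all genes 26.7%).

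Among lymphocytes, CD8 T cells and CD4 T cells lay on opposite sides of 1. In CD8 T cells the share was 0.244% in 426 tumour cells and 0.197% in 483 normal adjacent cells, a ratio of 1.24 (1.21 to 1.28). Of 40 genes, 12 were at least 1.5-fold higher in tumour CD8 T cells (over all genes 6.35%) and 0 lower (over all genes 5.03%). Ifit1 stood at 105 CPM in tumour and 47.1 CPM in normal adjacent CD8 T cells (2.24-fold, 1.91 to 2.63), and Rsad2 at 99.04 and 49.85 CPM. After thinning Rsad2 was alike, at 68.1 CPM in tumour and 65.4 CPM in normal adjacent cells, while Ifit1 stood at 105.6 and 61.2 CPM. For Ifit1 6 tumour and 9 normal adjacent cells held 50% of the UMIs, and for Rsad2 9 and 7 cells. Isg15 differed less, at 356 CPM in tumour and 322 CPM in normal adjacent CD8 T cells. Carriers were 16 tumour cells (3.76%) and 10 normal adjacent cells (2.07%). Without them the ratio was 1.13, with 6 of 40 genes higher (over all genes 6.5%) and 0 lower (over all genes 4.91%).

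In CD4 T cells the share was 0.154% in 257 tumour cells and 0.200% in 270 normal adjacent cells, a ratio of 0.771 (0.733 to 0.810). Of 37 genes, 13 were at least 1.5-fold lower in tumour CD4 T cells (over all genes 7.08%) and 0 higher (over all genes 7.35%). Ifit1 stood at 40.95 CPM in tumour and 121.5 CPM in normal adjacent CD4 T cells (0.337), and Ifit2 had 6 UMIs in tumour and 71 UMIs in normal adjacent CD4 T cells. Carriers were 6 in each library, with shares of up to 5.62% in normal adjacent cells, and 31 tumour and 12 normal adjacent CD4 T cells held 50% of the signal. Without carriers the ratio was 0.890, with 9 of 36 genes lower (over all genes 6.95%) and 1 higher (over all genes 7.36%). The ratio was 1.05 when CD4 T cells that also carried markers of another lineage were kept.

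In gamma delta T cells 7 of 34 genes were at least 1.5-fold higher in tumour (over all genes 7.06%) and 1 lower (over all genes 6.01%), with Rsad2 at 100 UMIs in tumour and 39 UMIs in normal adjacent cells. For Rsad2, 2 gamma delta T cells of each library held 50% of the UMIs, and thinned levels were 35.2 CPM in tumour and 28.6 CPM in normal adjacent cells. Without the 12 tumour and 4 normal adjacent carriers among gamma delta T cells, 0 of 29 genes were higher (over all genes 6.86%) and 3 lower (over all genes 6.23%). In the remaining T cells 1 of 39 genes was higher, Ifih1 (over all genes 5.89%), and 1 lower, Ifit3b (over all genes 4.19%). In NK cells 7 of 18 genes were higher (over all genes 9.35%) and 0 lower (over all genes 10.4%). Trim30a, a ubiquitin ligase, had 45 UMIs in tumour and 16 UMIs in normal adjacent NK cells (3.25-fold, 1.80 to 6.16), and Bst2 stood at 155 CPM and 74.6 CPM. In B cells 10 of 26 genes were higher (over all genes 8.33%) and Irf9 was lower (over all genes 7.56%). Rsad2, with 115 UMIs in tumour and 37 UMIs in normal adjacent B cells, had 50% of its UMIs in 1 cell of each library. The only B cell carrier was a tumour cell with 2.23% and 22 of the genes. The B cell ratio was 1.34 with all cells and 1.08 (0.981 to 1.19) without that cell, with 4 of 24 genes higher (over all genes 8.19%) and 1 lower (over all genes 7.67%).

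Dendritic cells and fibroblasts had patterns of their own. Plasmacytoid dendritic cells, specialised producers of type I interferon, numbered 10 in tumour and 15 in normal adjacent tissue. Their shares were 0.468% and 0.484%, with 0 carriers in either library (upper interval bounds 30.8% in tumour and 21.8% in normal adjacent cells). Bst2, a surface marker of this type in mice, supplied most of it, with 3903 CPM in tumour and 3473 CPM in normal adjacent plasmacytoid dendritic cells. Migratory dendritic cells had 0.223% in 130 tumour cells and 0.294% in 97 normal adjacent cells. In them 13 of 36 genes were at least 1.5-fold lower in tumour (over all genes 6.64%) and Oas3 was higher (over all genes 9.02%), with Ifit3 at 48 UMIs in tumour and 100 UMIs in normal adjacent cells. Their 4 tumour and 7 normal adjacent carriers held 25.6% and 44.5% of the signal, and without carriers the ratio was 0.985 (0.929 to 1.04), with 6 of 33 genes lower (over all genes 6.64%) and 5 higher (over all genes 8.81%). In type 2 dendritic cells 5 of 34 genes were higher (over all genes 11.7%) and 5 lower (over all genes 7.45%). Without their 4 tumour and 2 normal adjacent carriers, 10 of 25 were higher (over all genes 11.4%) and 0 lower (over all genes 7.2%), and the ratio of the summed share was 1.35 (1.235 to 1.47). In fibroblasts 4 of 36 were higher (over all genes 7.86%) and 3 lower (over all genes 9.66%), with Iigp1 at 100.7 CPM in tumour and 177 CPM in normal adjacent fibroblasts and Bst2 at 350 CPM and 317 CPM.

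Genes differed in how far they kept 1 direction over types. Oas3 had a ratio above 1 in 10 of 12 types measured, with an interval above 1 in 5 types and below 1 in 0. Trim30a was above 1 in 14 of 15 types (interval above 1 in 6, below 1 in 0), Zbp1 in 12 of 15 (interval above 1 in 5, below 1 in 3), and Bst2 in 12 of 15 (interval above 1 in 5, below 1 in 2). Oasl1 was above 1 in 4 of 12 types and had an interval below 1 in 6. Ifit1 and Rsad2 went both ways: Ifit1 had an interval above 1 in 3 types and below 1 in 7, and Rsad2 had 5 each. The types share the same 2 libraries, so these counts are not independent. The intervals cover counting error only, and an interval on 1 side of 1 can rest on very few cells. For Rsad2 in B cells, 1 tumour cell held 84.35% of the tumour UMIs.

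Ifnb1, interferon beta, gave only 92 UMIs in 32 tumour cells and 89 UMIs in 34 normal adjacent cells, of which 3 and 6 were carriers. In macrophages 13 tumour cells and 9 normal adjacent cells had an Ifnb1 UMI. The median share of the 40 genes was 0.322% in the tumour macrophages with Ifnb1 and 0.167% in those without, and 0.149% and 0.172% in normal adjacent macrophages. The macrophages with Ifnb1 were deeper, at medians of 19144 UMIs in tumour and 17179 UMIs in normal adjacent cells, compared with 10725.5 and 7772 UMIs without, and the part of depth was not tested. Ifng, interferon gamma, was far more abundant, at 4087 UMIs in 1191 tumour cells and 5074 UMIs in 1319 normal adjacent cells. Ifng stood at 402 CPM in tumour and 302 CPM in normal adjacent NK cells, at 179 and 200 CPM in CD8 T cells, and at 61.4 and 164 CPM in CD4 T cells (0.374, 0.296 to 0.468).

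Receptor RNA was read in the same cells. Ifnar1, a chain of the type I receptor, stood at 55.4 CPM in tumour and 33.9 CPM in normal adjacent neutrophils, and at 99.1 CPM and 58.6 CPM in monocytes. Ifnar2, the other chain, stood at 149 CPM in tumour and 132 CPM in normal adjacent neutrophils. Ifnlr1, the type III receptor chain, had only 14 UMIs in tumour and 13 UMIs in normal adjacent luminal progenitors. Between the tissues, 5 of 40 further interferon-induced genes were at least 1.5-fold higher (over all genes 9.97%) and 2 lower (over all genes 7.48%) in tumour neutrophils. In macrophages 2 of 44 were higher (over all genes 4.93%) and 0 lower (over all genes 4.18%), and after thinning 12 of 42 were higher and 3 lower. In CD8 T cells 6 of 44 were higher (over all genes 6.35%) and 0 lower (over all genes 5.03%), and after thinning 18 of 43 were higher and 6 lower. The thinned counts had no minimum of UMIs after thinning, and no thinned share over all genes is given. They therefore cannot be set beside the shares of all genes, which are not thinned. In basal cells 1 of 29 was higher (over all genes 9.53%) and 12 lower (over all genes 6.81%), and in migratory dendritic cells 1 of 40 was higher (over all genes 9.02%) and 7 lower (over all genes 6.64%). Of the 11 signalling genes, 4 of 10 measured were higher in tumour monocytes (over all genes 12.3%) and 0 lower (over all genes 9.97%). In tumour neutrophils 1 of 11 was higher (over all genes 9.97%) and 0 lower (over all genes 7.48%).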

How the data were processed

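The values were whole UMI counts in a 10x Genomics matrix of genes by barcodes for each library, as deposited by the authors. Cell Ranger 4.0.0 made them, per the file headers. The submitters' processing notes also name R 4.0.3, Seurat 3.2.2 and a human genome build, while the gene rows are mouse genes, and the mouse build is not given in the sources used here. The members and gene lists were chosen with earlier results of these data known. Every one of the 40 genes with a row was measured and the named genes are the members by role, then pathway genes by list. Cells with at least 200 genes and at most 20% mitochondrial UMIs were kept. Types were gated on marker UMIs per 10000 (26 panels, 22 types, 8 lineages, at least 3 panel UMIs), for example 64 for neutrophils, 32 for monocytes and macrophages and 8 for T cells. Cd7 was left out of the type 2 dendritic panel, since lymphocytes express it. No doublet caller was run, and cells passing gates of at least 2 lineages were set apart.

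UMIs were summed per type and library. Shares of cells have exact Clopper-Pearson intervals, differences Newcombe intervals, levels exact Poisson intervals and ratios exact conditional binomial intervals. Fold counts cover genes with at least 20 UMIs over both libraries in that type, with 0.5 added to each count. The share of all such genes past 1.5-fold is given beside most of them, but not for counts after thinning. Of the 15 types compared, each had at least 50 cells per library. Carriers were compared with other cells using carrier status recomputed without the gene itself. Sequence shared between genes was read from GENCODE transcripts. Thinning drew 1000 UMIs per cell. Python 3.11.15, numpy 2.4.6, scipy 1.17.1 and pandas 2.3.3 were used, and the steps were checked on simulated counts. Alternatives were marker thresholds, doublet treatment, thinning, weighting of cells, carrier definitions and left-out genes or cells.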

Additional observations from a re-analysis of the deposited data

How the results depend on the processing

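Of the settings tried, 66 main values kept within their limits, 49 moved and 4 turned, and among single genes and further types 649 kept, 368 moved and 15 turned. The cause was not tested. No paired analysis was possible because each group is 1 library. The neutrophil ratio ranged from 0.911 to 1.08 and the monocyte ratio from 1.202 to 2.63.

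With marker thresholds 2 times higher, the neutrophil share was 1.23% in tumour and 1.25% in normal adjacent tissue (ratio 0.980), the tumour monocyte share 0.329% with 6.78% carriers (ratio 1.37), and the NK ratio turned to 0.953. With thresholds 2 times lower, neutrophils had 1.46% in tumour and 1.60% in normal adjacent tissue (ratio 0.911), monocytes 0.392% and 0.211% with 0 normal adjacent carriers, and the B cell ratio turned to 0.984. With cells of 2 lineages kept, neutrophils had 1.01% in tumour and 1.01% in normal adjacent tissue (ratio turned to 1.004, tumour carriers 29.8%) and monocytes 0.392% and 0.246% (ratio 1.59), while CD4 T cells turned to 1.05 and other epithelial cells to 1.007. Thinned to 1000 UMIs, neutrophils had 1.44% in tumour and 1.396% in normal adjacent tissue (turned to 1.03), monocytes 0.508% and 0.203% (ratio 2.50, with 16.7% of normal adjacent monocytes holding 50% of the signal), and luminal progenitors turned to 1.011. As a mean over cells, neutrophils had 1.41% in tumour and 1.35% in normal adjacent tissue (turned to 1.04), monocytes 0.541% and 0.206% (ratio 2.63), and luminal progenitors turned to 1.25. Without carriers, an alternative chosen after seeing the data, neutrophils turned to 1.08, monocytes stood at 1.202 and luminal progenitors turned to 1.25. The genes at least 1.5-fold higher then numbered 5 of 35 in neutrophils (over all genes 10.8%) and 9 of 31 in monocytes (over all genes 11.2%).

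The monocyte ratio was 2.04 without the top cell of each library and 1.73 without Ly6c2 in the panel (86 tumour cells), and luminal progenitors turned to 1.04 without the 3 genes with most UMIs. Carriers defined from 0.5% were 42.3% of tumour and 38.1% of normal adjacent neutrophils, and 21.7% and 8.22% of monocytes. From 2% they were 25.0% and 22.4% of neutrophils and 0 normal adjacent monocytes. Cells with at least 5 of the genes were 48.3% of tumour and 48.0% of normal adjacent neutrophils, and 70.7% and 57.5% of monocytes. At a fold of 2, 0 genes were higher in tumour neutrophils (over all genes 3.07%) and 15 in tumour monocytes (over all genes 4.7%). Thinning also turned Ifi204 in neutrophils (1.015), Parp14 in monocytes (0.777), Zbp1 (0.947), Ifi204 (1.014), Ifit1 (1.88) and Usp18 (1.59) in macrophages and Usp18 in basal cells (1.35). After thinning 11 of 28 further interferon-induced genes were higher and 3 lower in tumour monocytes, with no thinned share over all genes to set beside them. Depth limits genes such as Gbp5 and Ifi44, with few UMIs in most types.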

Other observations

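Cells with markers of more than 1 lineage held 45.0% of the tumour and 45.3% of the normal adjacent UMIs of the 40 interferon-induced genes, and are outside the comparisons between types. Their carriers were 156 of the tumour cells (8.23%) and 52 of the normal adjacent cells (3.98%), at median depths of 15326.5 and 20977.5 UMIs. Cells with neutrophil and mononuclear phagocyte markers had the genes at 0.519% of UMIs in 510 tumour cells and 0.453% in 164 normal adjacent cells, with carriers at 20.2% and 14.0%. Cells with T or NK and phagocyte markers had 0.269% in 895 tumour cells and 0.242% in 846 normal adjacent cells, with 23 and 13 carriers. Cells with neutrophil and T or NK markers had 0.559% in 77 tumour cells and 0.464% in 41 normal adjacent cells.

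Cells that passed no gate numbered 684 in tumour and 714 in normal adjacent tissue, with 48 and 57 carriers. Monocytes with an intermediate level of the macrophage panel, 36 in tumour and 28 in normal adjacent tissue, had 0.213% and 0.244% of their UMIs from the 40 genes and 2 and 0 carriers. Regulatory T cells, 29 in tumour and 53 in normal adjacent tissue, had 0.208% and 0.163%, with 3 and 1 carriers.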
